A study of Rattus norvegicus with 10 samples.

Results

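Gene expression in area CA1 was compared between rat hippocampal slices given CSP-TTK21 alone and slices given SKF alone. The comparison was defined by its sample labels and took 4 samples of 10, 2 libraries of each group. The remaining 6 samples, 2 each of SKF+Aβ, SKF+Aβ+CSP and SKF+Aβ+CSP-TTK21, served to estimate the spread and to place both groups. The CSP-TTK21 alone slices received neither SKF nor amyloid-β (Aβ), and the SKF alone slices received neither particle nor Aβ. SKF is an agonist of the dopamine D1 and D5 receptors. CSP is a glucose-derived carbon nanosphere used as a carrier, and CSP-TTK21 is the same particle loaded with TTK21, a small molecule activator of the acetyltransferases CBP and p300, used at 0.36 μg/ml. Slices came from the right hippocampus of adult male Wistar rats aged 5 to 7 weeks, had 30 min of basal stimulation before treatment, and were frozen 1 h after treatment. By the study's methods a repeat of a group was made from 2 slices of 2 biological samples, so the 2 libraries of a group need not be single animals. The groups differ both by SKF and by the loaded particle, so that the effect of leaving out SKF and the effect of adding CSP-TTK21 cannot be told apart here. Empty CSP without SKF and Aβ, and untreated slices, were not analysed here.

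Total counts were between 6753742 and 8473407 in the 10 libraries, with 6935944 and 7469777 for CSP-TTK21 alone and 7088781 and 7557322 for SKF alone. At these depths 3 counts correspond to 0.354 to 0.444 CPM, the count scaled to library size. The 2 libraries of a group differed by more than counting noise in every group, the chi-square divided by its degrees of freedom being 6.71 for CSP-TTK21 alone and 12.1 for SKF alone, so each was kept as a replicate. Neuronal and glial markers were present in all 4 libraries. Slc17a7, the vesicular glutamate transporter of hippocampal pyramidal neurons, was at 1455 and 1248 CPM in CSP-TTK21 alone and at 1469 and 1474 CPM in SKF alone. Wfs1, a marker of CA1 pyramidal neurons, was at 140.1 and 98.1 CPM and at 137 and 231 CPM in the same order. Prox1, a marker of dentate granule cells, was also present, at 161 and 163 CPM and at 142 and 179 CPM. In tissue RNA of this kind, fewer cells of a type and less RNA per cell cannot be told apart.

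Stimulation of D1/D5 receptors raises cyclic AMP, which activates protein kinase A (PKA) and, through it, the transcription factor CREB. CREB recruits CBP and p300, which acetylate histones at its target promoters, and serum response factor (SRF) acts beside CREB at many of the same genes. The first genes to respond to neuronal activity, the immediate early genes, encode mostly transcription factors such as Fos and Egr1, and a later group encodes effectors that act at synapses, such as Arc and Bdnf.

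No gene passed the threshold for differential expression, a Benjamini-Hochberg adjusted p-value under 0.05 in edgeR's quasi-likelihood test with a log2 fold change beyond 1.5. The count was 0 of 15032 genes tested (0%), and it was also 0 (0%) at any fold change. The smallest adjusted p-value was 0.0544. In the text below, adjusted p-values are those of the same edgeR test, a count of genes higher or lower is at an unadjusted p-value under 0.05, log2 fold changes are CSP-TTK21 alone over SKF alone with their standard error, and levels are CPM scaled by TMM factors. At an unadjusted p-value under 0.05, 625 genes (4.16% of those tested) were higher in CSP-TTK21 alone and 545 (3.63%) were lower. With a log2 fold change beyond 1 as well, 110 genes (0.732%) were higher and 82 (0.546%) were lower. DESeq2 gave 3 genes at an adjusted p-value under 0.05, Sik1, a Y RNA gene and LOC684988, with 380 higher and 395 lower at an unadjusted p-value under 0.05. Both libraries of CSP-TTK21 alone lay above both of SKF alone in 2821 genes (18.8%) and below them in 2600 (17.3%). Every count in this paragraph describes these libraries and none of the genes named hereafter passed the adjusted test between CSP-TTK21 alone and SKF alone. The adjusted p-value was at least 0.633 for every gene other than Sik1 and the Y RNA gene.

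The immediate early genes lay lower in CSP-TTK21 alone than in SKF alone. All 28 tested members of the list had a negative log2 fold change, from -1.47 for Egr2 to -0.06 for Klf10, with a median of -0.63 beside 0.0023 over all genes tested. Of the 28, 22 had an unadjusted p-value under 0.05, all lower, where 3.63% of all genes did. In 22 of 28 both CSP-TTK21 alone libraries lay below both SKF alone libraries, where 17.3% of all genes did. The list was taken up with results of this series known, so its direction is a description. The summed level of the 28 genes was 3322 and 2380 CPM in CSP-TTK21 alone and 4806 and 4703 CPM in SKF alone.

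**Figure D1:**
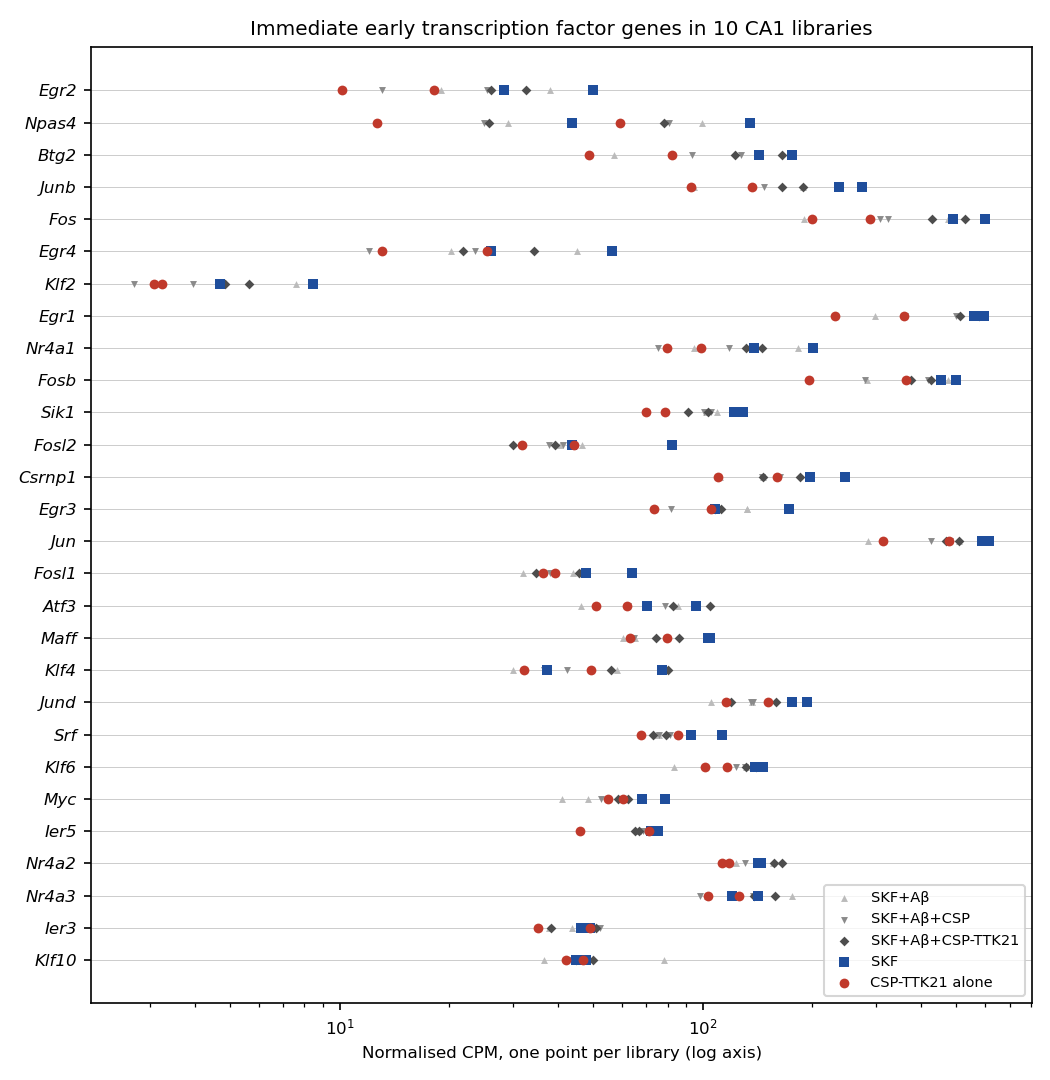
Normalised CPM (log axis) of the 28 immediate early genes tested, with 1 point per library, sorted by the log2 fold change between CSP-TTK21 alone (red circles) and SKF alone (blue squares). The red circles lie to the left of the blue squares in 22 of 28 genes, and the grey points of the 3 groups with Aβ reach into both ranges for genes such as Fos.

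Among the AP-1 genes, whose products pair as Fos and Jun dimers, Fos was at 288 and 200.0 CPM in CSP-TTK21 alone and at 489 and 599 CPM in SKF alone. Its log2 fold change was -1.16 ± 0.31 (adjusted p = 0.633). Both CSP-TTK21 alone libraries lay well below both SKF alone libraries, while the 6 libraries with Aβ spanned 190.2 to 528 CPM and reached into both ranges. Junb was at 137 and 92.6 CPM and at 275 and 237 CPM, a log2 fold change of -1.16 ± 0.25. The SKF alone libraries held the highest Junb levels of the 10, above a range of 94.6 to 189 CPM in the groups with Aβ. Fosb (-0.77), Fosl1 (-0.56), Jun (-0.60) and Jund (-0.47) also had p-values under 0.05 and groups that did not overlap. Fosl2 (-0.73) was high in SKF alone replicate 1 only, and its groups overlapped.

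The Egr genes encode zinc finger factors induced by SRF. Egr1 was at 359 and 231 CPM in CSP-TTK21 alone and at 557 and 596 CPM in SKF alone, with a log2 fold change of -0.97 ± 0.27. Egr2 was at 18.1 and 10.2 CPM and at 49.9 and 28.3 CPM, with the largest difference of the list at -1.47 ± 0.39. Both genes were lowest in CSP-TTK21 alone replicate 2 and did not overlap between the groups. Egr3 (-0.65) and Egr4 (-1.09) were lower too, but the lower SKF alone library barely exceeded the higher CSP-TTK21 alone library in each, at 108 against 105 CPM for Egr3 and 26.0 against 25.5 CPM for Egr4. Srf itself was at 85.4 and 67.6 CPM and at 113 and 92.8 CPM, a log2 fold change of -0.43 ± 0.15. Npas4, a factor induced by calcium entry in neurons, differed by -1.32 ± 0.76 but was at 59.1 and 12.7 CPM in CSP-TTK21 alone and at 135 and 43.7 CPM in SKF alone, so that the groups overlapped (adjusted p = 0.674).

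Of the orphan nuclear receptor genes, Nr4a1 was at 99.0 and 79.5 CPM in CSP-TTK21 alone and at 201 and 139 CPM in SKF alone, a log2 fold change of -0.93 ± 0.28. Nr4a2 differed by -0.31 ± 0.14 and Nr4a3 by -0.19 ± 0.23 (adjusted p = 0.842), the latter with overlapping groups. The smallest p-value among genes lower in CSP-TTK21 alone was that of Sik1, a kinase that phosphorylates the CREB coactivators CRTC and class IIa histone deacetylases. Sik1 was at 78.8 and 69.6 CPM against 129 and 122 CPM, a log2 fold change of -0.75 ± 0.13 (adjusted p = 0.404). It was the only gene of the list in which both CSP-TTK21 alone libraries lay below the other 8, where 0.838% of all genes tested had that order. Btg2, an antiproliferative gene that responds to activity, was at 82.4 and 48.7 CPM and at 177 and 143 CPM, and differed by -1.28 ± 0.38. Csrnp1 (-0.71), Maff (-0.54), Klf2, Klf6, Atf3 and Myc made up the rest of the 22, and Klf4, Klf10, Ier3, Ier5, Npas4 and Nr4a3 did not reach an unadjusted p-value of 0.05.

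The count of immediate early genes depended on single libraries. It was 22 without CSP-TTK21 alone replicate 1, 7 without CSP-TTK21 alone replicate 2, 13 without SKF alone replicate 1 and 17 without SKF alone replicate 2. The share of all genes lower at that p-value moved as well, to 6.92%, 0.878%, 2.56% and 4.94% in the same order. The median log2 fold change of the list stayed negative, at -0.91, -0.49, -0.54 and -0.67, and 26 to 28 of the 28 genes kept a negative sign.

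To describe the promoters of these genes, sequence before the start of transcription was searched for the full CRE motif TGACGTCA, to which CREB binds, for the short CRE motif TGACG on either strand, which every full motif contains, and for the CArG box bound by SRF. RefSeq promoters of assembly GRCr8 were available for 18 of the 28 immediate early genes and for 20 of 26 effector genes, and 250 bases upstream of the start were read. A full CRE was found in 3 of 18 immediate early genes (16.7%) and in 3 of 20 effector genes (15%), against 2.92% of the 10234 tested genes with an entry. The short CRE was found in 12 of 18 (66.7%) and 11 of 20 (55%), against 28.3%, but also in 6 of 10 acetyltransferase genes (60%), a list without a gene at an unadjusted p-value under 0.05. In genes of cyclic AMP, PKA and CREB signalling it was found in 9 of 29 (31%). A gene was counted if any of its promoters matched. The 10 acetyltransferase genes had 18 promoters and the 29 signalling genes 45, against 18 for the 18 immediate early genes, so these shares are not fully comparable. The CArG box was found in 4 of 18 (22.2%) and 1 of 20 (5%), against 1.23%. A match is a description of the letters only. No entry was found for Fos, Jun, Atf3, Csrnp1, Egr3, Ier3, Klf10, Klf2, Myc, Nr4a3, Arc, Dusp4, Nrn1, Pcsk1, Penk and Trib1. Of the genes described, 4 are shown 5′ to 3′ on the strand of the gene, each with the motifs in capitals. They stand for a full CRE (Btg2, at -201), a full CRE with a further short one (Dusp1), a CArG box near a short CRE (Egr2) and 4 short CREs (Nr4a1).
Btg2, chr13:48087691-48087940, minus strand: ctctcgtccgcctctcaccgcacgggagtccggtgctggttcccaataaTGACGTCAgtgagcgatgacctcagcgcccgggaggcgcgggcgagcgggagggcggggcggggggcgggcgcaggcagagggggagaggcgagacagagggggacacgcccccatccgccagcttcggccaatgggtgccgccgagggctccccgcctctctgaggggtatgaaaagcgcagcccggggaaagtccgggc
Dusp1, chr10:17184603-17184852, plus strand: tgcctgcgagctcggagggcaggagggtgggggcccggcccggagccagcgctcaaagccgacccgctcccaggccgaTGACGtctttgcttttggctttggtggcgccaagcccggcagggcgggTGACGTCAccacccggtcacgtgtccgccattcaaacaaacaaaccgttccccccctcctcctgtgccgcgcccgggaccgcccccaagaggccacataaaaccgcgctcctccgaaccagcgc
Egr2, chr20:21054442-21054691, minus strand: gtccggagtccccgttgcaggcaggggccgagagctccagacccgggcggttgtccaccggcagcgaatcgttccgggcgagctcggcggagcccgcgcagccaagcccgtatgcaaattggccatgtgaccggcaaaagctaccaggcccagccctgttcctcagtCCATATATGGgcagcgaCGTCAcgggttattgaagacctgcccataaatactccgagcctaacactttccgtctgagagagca
Nr4a1, chr7:134259888-134260137, plus strand: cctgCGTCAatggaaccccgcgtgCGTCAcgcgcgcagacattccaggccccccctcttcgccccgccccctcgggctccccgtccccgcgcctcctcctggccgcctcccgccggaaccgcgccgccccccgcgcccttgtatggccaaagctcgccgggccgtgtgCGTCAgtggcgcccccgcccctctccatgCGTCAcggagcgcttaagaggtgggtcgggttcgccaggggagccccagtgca

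Effector genes induced by activity also lay lower in CSP-TTK21 alone, though less uniformly. Of 26 tested, 21 had a negative log2 fold change, the median was -0.49, 12 were lower at an unadjusted p-value under 0.05, where 3.63% of all genes were, and 0 were higher. Both CSP-TTK21 alone libraries lay below both SKF alone libraries in 9 of 26 genes, where 17.3% of all genes did, and above them in 3, where 18.8% did. Arc, a postsynaptic protein of endocytic AMPA receptor removal, was at 187 and 76.3 CPM in CSP-TTK21 alone and at 445 and 226 CPM in SKF alone, a log2 fold change of -1.35 ± 0.36. SKF alone replicate 1 held the highest and CSP-TTK21 alone replicate 2 the lowest Arc level of the 10 libraries. Gadd45b, a factor of active DNA demethylation in neurons, was at 99.0 and 69.9 CPM and at 136 and 132 CPM, with close SKF alone replicates and a log2 fold change of -0.67 ± 0.16. Gadd45g (-0.998 ± 0.27) and Pim1, a serine/threonine kinase (-0.83 ± 0.23), did not overlap between the groups either.

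Bdnf, the neurotrophin of late plasticity, was at 90.6 and 52.1 CPM in CSP-TTK21 alone and at 158 and 85.3 CPM in SKF alone, a log2 fold change of -0.77 ± 0.33. Here the groups overlapped, as they did for Inhba, which encodes an activin subunit, at 28.8 and 14.2 CPM and 80.2 and 24.2 CPM (-1.28 ± 0.57). Among the phosphatases that end MAP kinase signalling, Dusp1 was at 110.4 and 76.3 CPM and at 134 and 159 CPM (-0.65 ± 0.25). Dusp5 (-0.80), Dusp6 (-0.49) and Dusp4 (-0.59) were lower as well, Dusp4 with overlapping groups. Trib1 (-0.65) and, with overlapping groups, Nptx2 (-0.75) completed the 12. Homer1 (-0.40, adjusted p = 0.652), Plk2 (-0.45, adjusted p = 0.649) and Ptgs2 (-0.73, adjusted p = 0.649) were lower by values that missed an unadjusted p-value of 0.05, and Pcsk1 was higher by 0.29 (adjusted p = 0.677). Without SKF alone replicate 1 the count of 12 was 5 and the median -0.11, and without CSP-TTK21 alone replicate 2 they were 4 and -0.28.

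**Figure D2:**
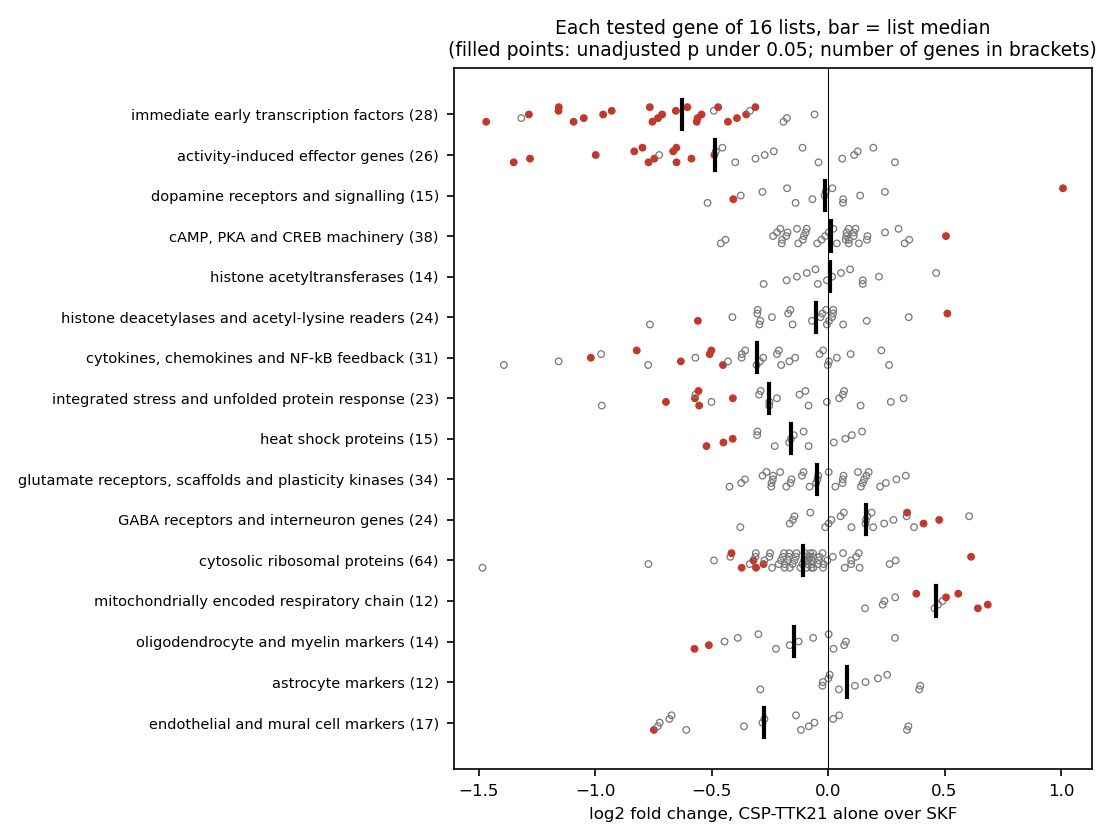
Log2 fold change of CSP-TTK21 alone over SKF alone for each tested gene of 16 lists, with the list median as a black bar. The medians of immediate early genes (-0.63) and effector genes (-0.49) lie furthest to the left, and that of mitochondrially encoded genes (0.46) lies furthest to the right.

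Each group was also set against the mean of the 3 groups with Aβ. All 3 of these received SKF, and SKF+Aβ+CSP and SKF+Aβ+CSP-TTK21 received a particle as well. SKF alone thus differs from that mean by Aβ and in part by a particle. CSP-TTK21 alone differs from it by SKF and Aβ and in part by the particle. The contrasts therefore cannot assign the difference to 1 of the groups. A gene said to rise in SKF alone was higher there than that mean. These contrasts each share libraries with the main comparison, so their values are given side by side. Against the groups with Aβ, 887 genes (5.90%) had an adjusted p-value under 0.05 for SKF alone, 352 of them higher (2.34%), and 0 (0%) for CSP-TTK21 alone. Both SKF alone libraries lay above the other 8 libraries in 1124 genes (7.48%) and below them in 1440 genes (9.58%). The count of 887 was 11 without SKF alone replicate 1 and 542 without SKF alone replicate 2.

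Immediate early genes deviated on both sides. Their median log2 fold change against the groups with Aβ was 0.43 for SKF alone and -0.27 for CSP-TTK21 alone. For SKF alone, 12 of 28 were higher at an unadjusted p-value under 0.05, where 12.6% of all genes were, and 4 of them, Junb, Csrnp1, Maff and Myc, passed the adjusted test. For CSP-TTK21 alone, 6 of 28 were lower at an unadjusted p-value under 0.05, where 3.43% of all genes were. Both SKF alone libraries held the highest levels of the 10 in 10 of the 28. Junb rose in SKF alone by 0.75 ± 0.20 (adjusted p = 0.0461, edgeR) and differed by -0.41 ± 0.21 in CSP-TTK21 alone. Maff rose in SKF alone by 0.54 ± 0.12 (adjusted p = 0.0304), while CSP-TTK21 alone lay on the mean of the groups with Aβ (adjusted p = 1). Egr1 had the opposite balance, at 0.30 ± 0.21 (adjusted p = 0.4) for SKF alone and -0.67 ± 0.23 (adjusted p = 0.782) for CSP-TTK21 alone. Btg2, at 0.38 ± 0.30 and -0.90 ± 0.33, and Sik1, at 0.30 ± 0.10 and -0.46 ± 0.11, likewise lay further from the groups with Aβ in CSP-TTK21 alone.

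**Figure D3:**
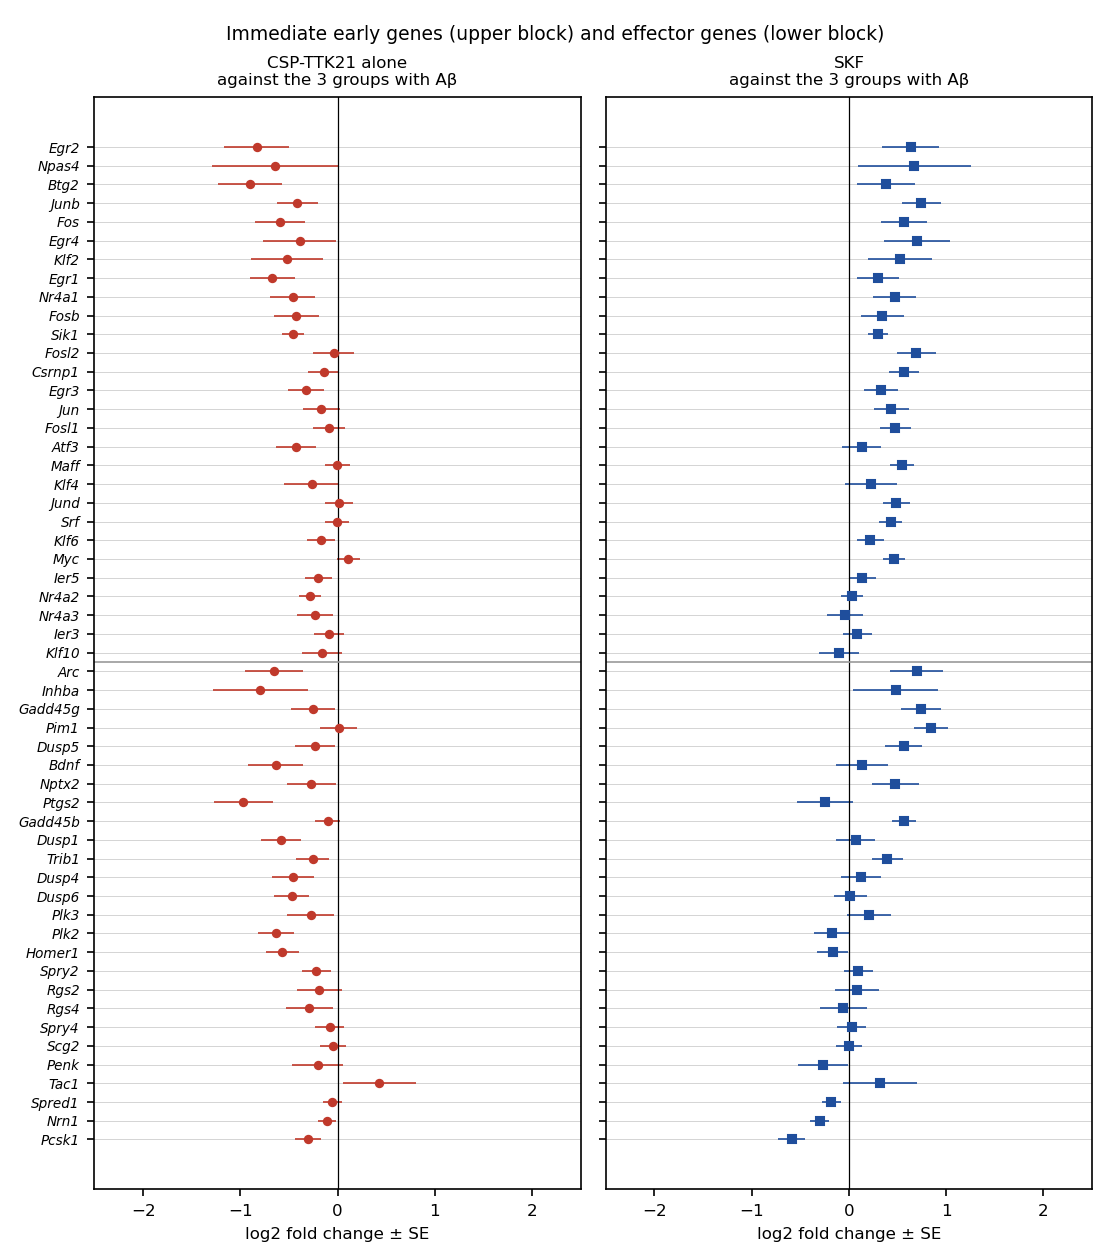
Log2 fold change with its standard error of CSP-TTK21 alone (left) and SKF alone (right) against the mean of the 3 groups with Aβ, for 28 immediate early genes above the grey line and 26 effector genes below it. Most immediate early genes lie left of 0 in the left panel and right of 0 in the right panel, with medians of -0.27 and 0.43.

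For effector genes the medians were -0.26 for CSP-TTK21 alone and 0.09 for SKF alone. At an unadjusted p-value under 0.05, 8 of 26 were lower in CSP-TTK21 alone, where 3.43% of all genes were. In SKF alone 6 were higher and 2 lower, where 12.6% and 13.7% of all genes were. Pim1 rose in SKF alone by 0.85 ± 0.18 (adjusted p = 0.0255) and was at 0.01 ± 0.19 in CSP-TTK21 alone, and Gadd45b rose by 0.57 ± 0.12 (adjusted p = 0.0287) and was at -0.10 ± 0.13. Bdnf was at 0.13 ± 0.26 in SKF alone and at -0.64 ± 0.28 (adjusted p = 0.782) in CSP-TTK21 alone, and Dusp1 at 0.07 ± 0.20 and -0.58 ± 0.21 (adjusted p = 0.782).

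The contrast was also set against the one that adds CSP-TTK21 in the presence of SKF and Aβ, SKF+Aβ+CSP-TTK21 over SKF+Aβ, which shares no library with it. That contrast keeps SKF in both groups, whereas the main one exchanges SKF for CSP-TTK21. Their difference therefore also holds the absence of SKF and cannot be read as an effect of CSP-TTK21 that depends on Aβ. The difference of both log2 fold changes had an adjusted p-value under 0.05 for 0 of 15032 genes (0%) in edgeR, with a smallest adjusted p-value of 0.238. DESeq2 gave 2, the Y RNA gene named above and Ftl1, the ferritin light chain. At an unadjusted p-value under 0.05 the difference was negative for 616 genes (4.10%) and positive for 612 (4.07%). The summed level of the 28 immediate early genes was 2666 and 4314 CPM in SKF+Aβ and 3865 and 4238 CPM in SKF+Aβ+CSP-TTK21, so the SKF+Aβ replicates lay far apart. The difference was negative for 18 of these 28 genes at that p-value and positive for 0, with a median of -0.86. Oligodendrocyte and myelin markers lay in the same direction, with a median of -0.69 and 5 of 14 negative, and oligodendrocyte precursor markers had a median of -0.54 with 1 of 8 negative at that p-value. At that p-value 21 of 64 ribosomal protein genes were negative and 0 positive (median -0.43), 6 of 32 histone genes were negative and 0 positive (median -0.51), and 25 of 178 small nucleolar RNAs were positive and 1 negative (median 0.76). Most members of these 3 lists did not reach that p-value. The part of these lists in the difference was not tested. For Fos the difference was -1.68 ± 0.43 (adjusted p = 0.558), with 427 and 528 CPM in SKF+Aβ+CSP-TTK21 against 190.2 and 473 CPM in SKF+Aβ. The SKF+Aβ replicates lay further apart for this gene than those of the other 3 groups in the difference. Effector genes had 5 negative and 0 positive, with a median of -0.17. The genes with the smallest p-values of this difference were the Y RNA gene (1.53 ± 0.23), Ftl1 (-0.99 ± 0.19), a signal recognition particle RNA gene (-4.01 ± 0.81), a 7SK gene (-2.62 ± 0.53) and Fbxo2, a ubiquitin ligase subunit of neurons (-0.99 ± 0.21).

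Genes of cyclic AMP, PKA and CREB signalling were near the shares over all genes, and the activity of this signalling was not measured. Of 38 genes of cyclic AMP, PKA and CREB signalling, 1 was higher at an unadjusted p-value under 0.05, beside 4.16% of all genes, and 0 were lower, beside 3.63%, with a median of 0.01. Without overlap, 8 of 38 lay higher and 8 lower, beside 18.8% and 17.3%. The 1 was Pkia, which encodes a PKA inhibitor, at 87.8 and 98.6 CPM in CSP-TTK21 alone and 55.3 and 76.0 CPM in SKF alone (0.51 ± 0.17). Creb1 differed by 0.02 ± 0.19 (adjusted p = 0.985). Of 15 dopamine genes, Drd1 was at 3.94 and 4.81 CPM and 1.66 and 2.67 CPM, a log2 fold change of 1.01 ± 0.36 on 28 and 36 against 12 and 20 counts. Drd5, the other receptor gene of the D1 class, was at 3.10 and 2.14 CPM and 3.04 and 3.74 CPM (-0.38 ± 0.48, adjusted p = 0.855). Ppp1r1b, which encodes the PKA target DARPP-32, was at 56.1 and 59.5 CPM and 75.6 and 77.7 CPM (-0.41 ± 0.15), and rose in SKF alone against the groups with Aβ by 0.86 ± 0.12 (adjusted p = 0.0108).

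For the genes of the TTK21 targets the difference was smaller than its standard error. Crebbp, which encodes CBP, was at 298 and 274 CPM in CSP-TTK21 alone and at 277 and 273 CPM in SKF alone (0.06 ± 0.12, adjusted p = 0.922). Ep300, which encodes p300, was at 66.1 and 61.8 CPM and 64.0 and 67.8 CPM (-0.04 ± 0.14, adjusted p = 0.949). None of 14 acetyltransferase genes reached an unadjusted p-value of 0.05 in either direction, where 4.16% of all genes were higher and 3.63% lower, and 3 lay above and 0 below without overlap, where 18.8% and 17.3% of all genes did. Among 24 deacetylase and acetyl-lysine reader genes, the sirtuin genes Sirt1 (0.51 ± 0.16) and Sirt7 (-0.56 ± 0.22) reached that p-value in opposite directions, and 4 genes of the list lay above and 5 below without overlap. Of 32 histone genes, 0 reached it either way. Their median was -0.20, and 11 lay below and 1 above without overlap.

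Stress and inflammatory response genes lay lower in CSP-TTK21 alone in part. Of 23 genes of the integrated stress and unfolded protein response, 5 were lower at an unadjusted p-value under 0.05, where 3.63% of all genes were, and 0 were higher (median -0.25). The count of 5 was 1 without CSP-TTK21 alone replicate 2, 9 without CSP-TTK21 alone replicate 1, 4 without SKF alone replicate 1, and 8 with 2 higher without SKF alone replicate 2. Atf5, a stress-induced bZIP factor, was at 34.2 and 28.3 CPM in CSP-TTK21 alone and at 43.8 and 57.4 CPM in SKF alone (-0.70 ± 0.18). It rose in SKF alone against the groups with Aβ by 1.01 ± 0.14 (adjusted p = 0.0108), whereas CSP-TTK21 alone was at 0.31 ± 0.15. The others were Ppp1r15a, the phosphatase subunit that reverses eIF2α phosphorylation (-0.56), Ddit3 (-0.57), Mthfd2 (-0.55) and Ddit4 (-0.41). Of 31 cytokine, chemokine and NF-kB feedback genes, 6 were lower, beside 3.63% of all genes, and 0 higher (median -0.31), namely Zfp36, which destabilizes cytokine mRNA (-0.63), Socs3 (-0.50), Lif (-1.02), Tnfaip3 (-0.82), Nfkbia (-0.51) and Relb (-0.45). Lif and Tnfaip3 were high in SKF alone replicate 1, and without that library the list had 2 genes lower and a median of 0.03. The count of 6 was 0 without CSP-TTK21 alone replicate 2, 15 without CSP-TTK21 alone replicate 1, 13 without SKF alone replicate 2, and 13 with the replicate number as a block. Of 15 heat shock genes, Bag3 (-0.41), Dnajb5 (-0.45) and Cryab (-0.52) were lower, beside 3.63% of all genes, and 0 were higher.

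A list of genes that the study also measured by RT-PCR, chosen by its authors and no independent evidence of a direction, was read as well. Of its 9 tested members, Atf5 alone had an unadjusted p-value under 0.05. App was at 1291 and 1234 CPM and 1694 and 1335 CPM (-0.26 ± 0.14, adjusted p = 0.652), Tgfb1 at 19.0 and 20.1 CPM and 21.8 and 27.0 CPM (-0.32 ± 0.23, adjusted p = 0.717) and Actb at 1736 and 1793 CPM and 1898 and 2144 CPM (-0.20 ± 0.13, adjusted p = 0.695). The chemokine gene Cxcl1 (-1.16 ± 0.65, adjusted p = 0.673) had 189 and 36.4 CPM in the SKF alone libraries, a gap wider than that between the groups. Il6 (-0.20 ± 0.40, adjusted p = 0.916), S100b (0.12 ± 0.20, adjusted p = 0.896) and Wnt10b (0.23 ± 0.49, adjusted p = 0.924) also overlapped between the groups.

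Other genes with the smallest p-values among those lower in CSP-TTK21 alone were of mixed function. Gadd45a, a stress sensor of the same family as Gadd45b, was at 46.1 and 39.8 CPM and 76.9 and 62.2 CPM (-0.69 ± 0.17). Erf, a repressor of the ETS family, was at 59.2 and 41.4 CPM and 77.3 and 83.4 CPM (-0.68 ± 0.17), and the chromatin protein gene Hmga1 was at 35.2 and 25.9 CPM and 60.4 and 46.7 CPM (-0.81 ± 0.20). Against the groups with Aβ, and picked on the same SKF alone libraries, Gadd45a, Erf and Hmga1 were at 0.60, 0.62 and 0.89 in SKF alone, while CSP-TTK21 alone was at -0.09, -0.06 and 0.08. Arl4d, a small GTPase gene (-1.23 ± 0.30), and the unnamed gene AC120246.2 (-0.96 ± 0.22) completed these. Of the lowest fold changes among genes without overlap, Mir6326 (5 counts over both CSP-TTK21 alone libraries against 26 over both SKF alone libraries), AABR07072184.1 (5 against 26), Cdh16 (10 against 41) and Ccdc24 (7 against 27) rested on few counts. Mab21l3 (-2.14) was high in SKF alone replicate 1 only, at 9.54 and 1.47 CPM in SKF alone.

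Of the genes higher in CSP-TTK21 alone, the smallest p-value belonged to a Y RNA gene, ENSRNOG00000060430, a small noncoding RNA of the Ro ribonucleoprotein. It was at 27.7 and 36.6 CPM in CSP-TTK21 alone, 13.8 and 12.5 CPM in SKF alone and 34.2 to 60.4 CPM in the groups with Aβ. Its log2 fold change was 1.29 ± 0.17 (adjusted p = 0.0544), and its adjusted p-value was under 0.05 in DESeq2 (0.000122), in limma (0.0381), with at least 10 counts in every library (0.0462) and without CSP-TTK21 alone replicate 1 (0.0336), and far under it without a filter on low counts (1.16e-06). It was not with RLE factors (0.0508), the replicate number as a block (0.064), the 4 libraries alone (0.269), or without SKF alone replicate 2 (0.0974), SKF alone replicate 1 (0.174) or CSP-TTK21 alone replicate 2 (1). Y RNA genes have many close copies in the genome, so this count is uncertain. Scai, which encodes a repressor of the SRF coactivator MRTF, was at 37.4 and 38.2 CPM and 22.4 and 24.4 CPM (0.69 ± 0.14), with 38.4 to 43.8 CPM in the groups with Aβ. Zfp955a, a zinc finger gene (0.70 ± 0.15), Rnf138, a ubiquitin ligase gene (1.46 ± 0.31), Csmd3, a synaptic transmembrane gene (0.62 ± 0.14), Haus3, a subunit of the augmin complex (0.75 ± 0.17), and Wdr78, a ciliary dynein gene (0.89 ± 0.21), followed.

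Since these genes were picked for their difference from the same SKF alone libraries, their values against the groups with Aβ are a description. Scai was at -0.81 ± 0.12 in SKF alone and at -0.12 ± 0.11 in CSP-TTK21 alone, and Rnf138 was at -1.79 ± 0.26 and -0.32 ± 0.22. Fam71d had 14 and 16 counts in CSP-TTK21 alone and 2 and 1 in SKF alone, a ratio of summed counts scaled to depth of 10.2 with an exact 95% interval for counting error of 3.16 to 52.1. LOC684988 had 60 and 57 counts and 1 and 5 counts, a ratio of 19.8 (8.84 to 55.1), and its 6 libraries with Aβ ranged widely, at 9 to 62 counts. Ano5, a gene of the anoctamin family, had 7 and 26 counts and 0 and 4 counts, a ratio of 8.39 (2.98 to 32.6).

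**Figure D4:**
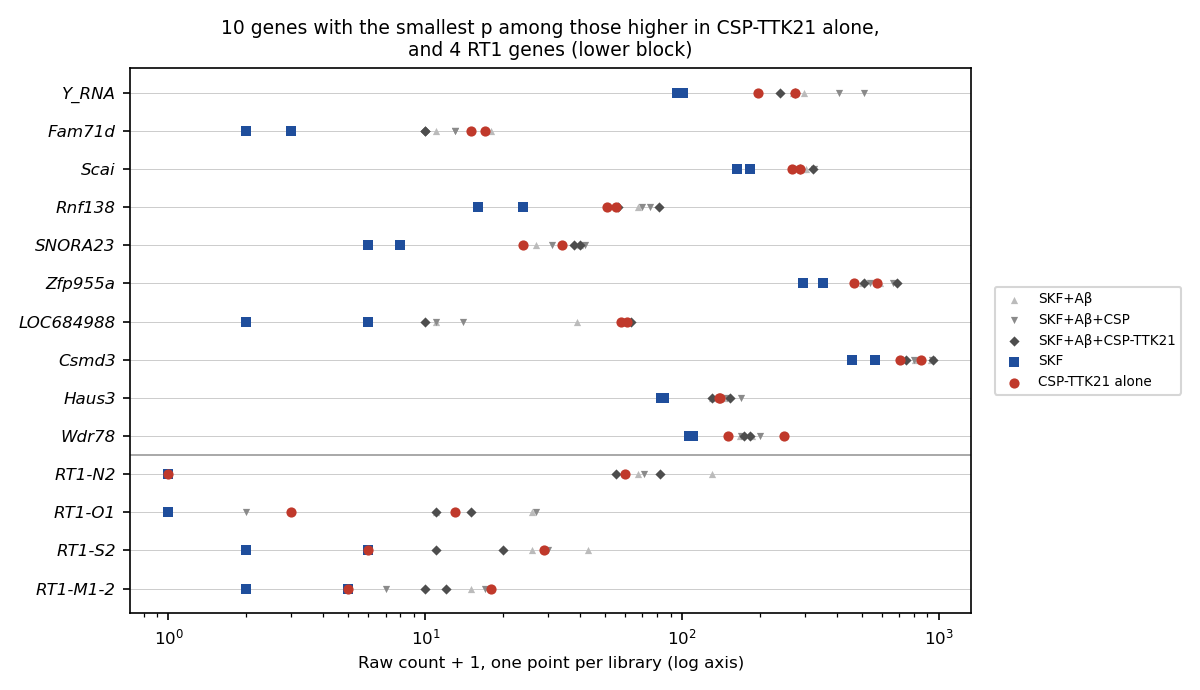
Raw count + 1 (log axis) of the 10 genes with the smallest p-values among those higher in CSP-TTK21 alone (upper block) and of 4 RT1 genes (lower block), with 1 point per library. In the upper block the blue squares of SKF alone lie left of the red circles, and in the lower block 1 red circle lies with the blue squares and the other with the groups with Aβ.

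Genes of the RT1 complex, the rat major histocompatibility complex, differed between the replicates of CSP-TTK21 alone. RT1-N2 had 0 and 59 counts in CSP-TTK21 alone, 0 and 0 in SKF alone and 0 to 130 in the groups with Aβ. RT1-O1 had 2 and 12 counts against 0 and 0, RT1-S2 5 and 28 against 5 and 1, and RT1-M1-2 4 and 17 against 4 and 1. In these 4 genes CSP-TTK21 alone replicate 1 lay with the SKF alone libraries and replicate 2 lay with most of the libraries with Aβ, so the difference between the groups rested on 1 library. SKF+Aβ+CSP replicate 1 was low for all 4 as well, with 0 counts of RT1-N2. The RT1 genes are a family of related genes and their counts are uncertain. Of 40 interferon response and antigen presentation genes, 4 were higher and 4 lower in CSP-TTK21 alone at an unadjusted p-value under 0.05, beside 4.16% and 3.63% of all genes, and the 4 higher were the RT1 genes just given. The genes RT1-CE7 (-0.98 ± 0.32), the peptide-loading gene Tapbp (-0.62 ± 0.20), Irf1 (-0.51 ± 0.18) and Ifit3 (-1.33 ± 0.45) were the 4 lower, Ifit3 with overlapping groups. The count of lower genes was 1 without CSP-TTK21 alone replicate 2, 1 without SKF alone replicate 1 and 8 without SKF alone replicate 2, and the count of higher genes was 0, 2 and 1 in the same order.

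The 12 protein-coding genes tested of the mitochondrial genome all had a positive log2 fold change, with a median of 0.46. At an unadjusted p-value under 0.05, 5 of 12 were higher, where 4.16% of all genes were, and 0 were lower. Mt-nd4, a subunit of complex I, was at 239 and 278 CPM in CSP-TTK21 alone and at 125 and 197 CPM in SKF alone (0.69 ± 0.19). Mt-co1, the catalytic subunit of complex IV, was at 12638 and 16193 CPM and 6561 and 11904 CPM (0.64 ± 0.22). Both were lowest in SKF alone replicate 1. Mt-nd6 (0.56), Mt-nd2 (0.51) and Mt-nd5 (0.38) were the other three. Against the groups with Aβ, 10 of 12 were lower in SKF alone at an unadjusted p-value under 0.05, where 13.7% of all genes were, and the median was -0.53, beside -0.12 for CSP-TTK21 alone. Mitochondrial genes took 3.58% of the counts of SKF alone replicate 1 and between 5.52% and 7.71% of the other 9 libraries, 5.88% and 6.69% for CSP-TTK21 alone. Without SKF alone replicate 1, 4 of 12 turned negative, 2 were higher and the median was 0.10. Without SKF alone replicate 2, 10 were higher and the median was 0.88, and without CSP-TTK21 alone replicate 2, 2 were higher and the median was 0.42. Of 71 nuclear encoded respiratory chain genes, 3 were higher and 1 was lower, with a median of 0.01.

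Small nucleolar and Cajal body RNAs, which guide modification of ribosomal and spliceosomal RNA, shared this direction. Of 178 tested, 22 were higher at an unadjusted p-value under 0.05, where 4.16% of all genes were, and 0 were lower, and the median was 0.32, unchanged at that precision when the 1 RNA without a count in SKF alone was set to its lower bound. SNORA23 was at 4.64 and 3.07 CPM in CSP-TTK21 alone and at 0.968 and 0.667 CPM in SKF alone (2.22 ± 0.47). SNORA48 (ENSRNOG00000060816) was at 150.1 and 198 CPM and 113 and 118 CPM (0.60 ± 0.16), and SNORA63 at 4.36 and 5.61 CPM and 1.66 and 2.40 CPM (1.29 ± 0.35). All 3 were lowest in the SKF alone libraries of the 10, as were 37 of the 178, where 9.58% of all genes were. The count of 22 was 9 without SKF alone replicate 1, with 1 lower, and 13 without CSP-TTK21 alone replicate 1, with 5 lower, and it was 18 without CSP-TTK21 alone replicate 2, with 4 lower. The median depended on which RNAs were kept, at 0.20 with 11 of 69 higher when every library had at least 10 counts, 0.18 with 14 of 943 higher in DESeq2, and 0.16 with 31 of 943 higher and 2 lower without a filter. Of 97 Y RNA, signal recognition particle, 7SK and spliceosomal RNA genes, 7 were higher and 8 were lower, beside 4.16% and 3.63% of all genes. Copies of 7SK, the RNA that holds the elongation factor P-TEFb inactive, went both ways, with -1.66 for ENSRNOG00000061908, -1.54 for ENSRNOG00000053909, 1.01 for ENSRNOG00000052826 and 1.15 for ENSRNOG00000053782, the 4 copies with an unadjusted p-value under 0.05. Of 64 ribosomal protein genes, 5 were lower, beside 3.63% of all genes, and 1 was higher, with a median of -0.11. Of these, 53 were negative and 16 lay below without overlap, beside 17.3% of all genes.

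**Figure D5:**
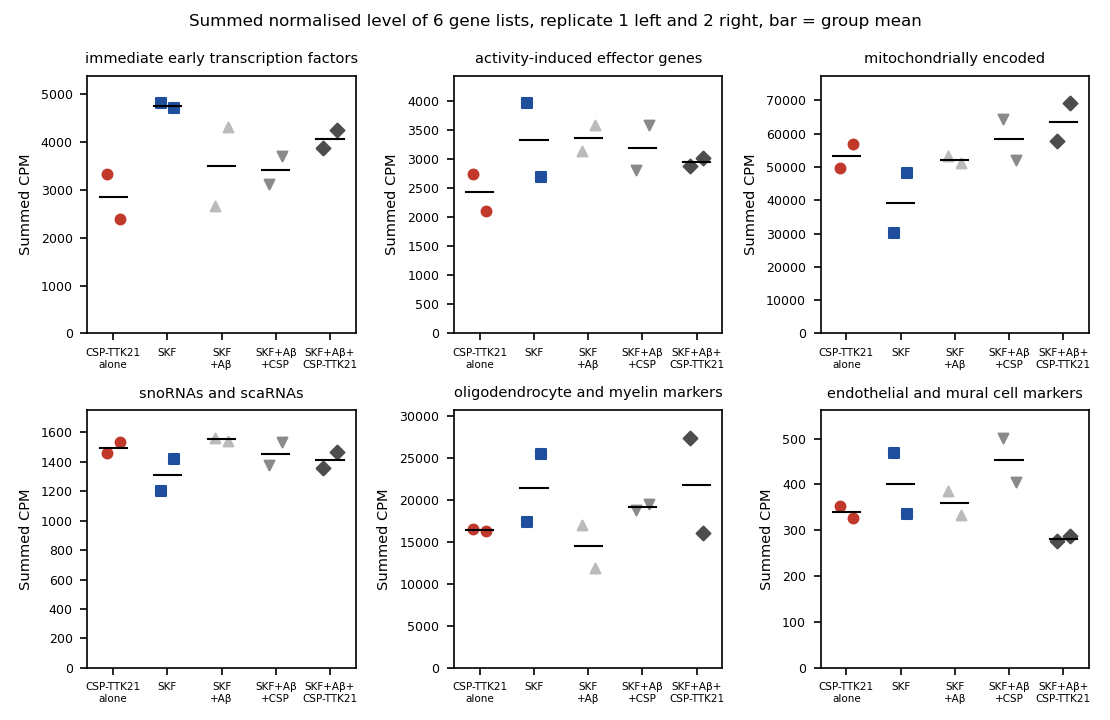
Summed normalised CPM of 6 gene lists in each of the 10 libraries, with the group mean as a bar. Immediate early genes sum to 3322 and 2380 CPM in CSP-TTK21 alone and to 4806 and 4703 CPM in SKF alone, and mitochondrially encoded genes are lowest in SKF alone replicate 1.

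Synaptic genes were examined by list, beside shares over all genes of 4.16% higher and 3.63% lower at an unadjusted p-value under 0.05 and of 18.8% above and 17.3% below without overlap. Of 34 glutamate receptor, scaffold and plasticity kinase genes, 0 were higher and 0 were lower, with a median of -0.05, and 6 lay above and 8 below without overlap. Of 24 GABA receptor and interneuron genes, the receptor subunit genes Gabra2 (0.41), Gabrb1 (0.34) and Gabrg1 (0.48) were higher and 0 were lower, with a median of 0.16 and 18 of 24 positive, and 8 lay above and 1 below without overlap. Of 28 vesicle release genes, Syt7, a calcium sensor (-0.45), and Unc13a, a priming factor (-0.29), were lower. Of 26 potassium channel genes, Kcnj3, a G protein-gated inward rectifier, was higher, at 82.0 and 77.5 CPM against 58.2 and 60.5 CPM (0.43 ± 0.13). In the TGF-beta pathway, 4 of 28 genes were lower and 2 higher at that p-value, where 3.63% and 4.16% of all genes were. Values are given here for 3 of the 4 lower genes. Id1, an inhibitor of helix-loop-helix factors (-0.85 ± 0.38), and the ligand gene Bmp6 (-0.68 ± 0.31) were lower and did not overlap, and Inhba, given above, was lower with overlap. Acvr2a, an activin receptor gene (0.58 ± 0.17), was higher without overlap and Id2 (0.44 ± 0.20) was higher with overlap. The remaining lists held few genes at that p-value. Of 34 Wnt genes, Fzd3 (0.32) was higher and Fzd7 (-0.96) and Wnt2 (-0.85) were lower, and of 29 amyloid processing and Alzheimer risk genes, Abca7 (-0.63) and Bin1 (-0.31) were lower. Clock (0.31) of 19 circadian genes and Psma2 (0.39) and Psmc6 (0.42) of 36 proteasome genes were higher, and Pfkfb3 (-0.42) of 30 hypoxia and glycolysis genes was lower. Among 23 aminergic and cholinergic receptor, 19 antioxidant and 28 cholesterol genes there were 0 either way. Of the cholesterol genes 9 lay below and 0 above without overlap, and 7 were highest of all 10 libraries in both SKF alone libraries, as were 7.48% of all genes. The receptor list had 4 above and 2 below, and the antioxidant list 0 above and 2 below. Of 10 neurotrophin and receptor genes only Bdnf was lower.

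Cell type markers were examined beside these lists, and their part in the differences was not tested. Over all genes, 4.16% were higher and 3.63% lower in CSP-TTK21 alone at an unadjusted p-value under 0.05, and markers called higher or lower than SKF alone are those at that p-value. Of 14 oligodendrocyte and myelin markers, Mbp (-0.57 ± 0.23) and Mobp (-0.51 ± 0.20) were lower in CSP-TTK21 alone, and the summed level of the list was 16530 and 16340 CPM in CSP-TTK21 alone and 17360 and 25570 CPM in SKF alone. The count of 2 lower genes was 0 without CSP-TTK21 alone replicate 2 and 0 without SKF alone replicate 2, where the median of the list went from -0.15 to 0.075 and 9 of 14 were positive. Without SKF alone replicate 1 all 14 were negative, with a median of -0.38. None of 12 astrocyte, 14 microglia, 8 oligodendrocyte precursor, 9 dentate granule cell or 6 CA1 pyramidal markers reached an unadjusted p-value of 0.05. All 6 CA1 pyramidal markers nevertheless had a negative log2 fold change, with a median of -0.24. Against the groups with Aβ, their median was -0.53 in CSP-TTK21 alone, with 3 of 6 lower at an unadjusted p-value under 0.05 beside 3.43% of all genes, and -0.22 in SKF alone. In the same contrast of CSP-TTK21 alone, 5 of 12 astrocyte markers (median 0.31) and 3 of 14 microglia markers (median 0.35) were higher at that p-value, beside 2.89% of all genes. SKF alone shared this direction against the groups with Aβ. There 5 of 12 astrocyte markers (median 0.22) and 4 of 14 microglia markers (median 0.31) were higher, beside 12.6% of all genes. In that contrast 1 microglia marker was lower, beside 13.7%. Of 11 CA3 and CA2 markers, Bok (-0.65) and Rgs14 (-0.37) were lower and Coch (0.68) was higher, and of 9 excitatory neuron markers Nrgn (-0.36) was lower. Of 17 endothelial and mural markers, Cdh5 (-0.75) was lower, with 54.9 and 23.0 CPM in SKF alone, and the list summed to 353.5 and 327 CPM in CSP-TTK21 alone and to 467.9 and 335.4 CPM in SKF alone. Of 5 blood markers, 1 was lower and 0 were higher, and 3 had a negative and 2 a positive log2 fold change, with a median of -0.21. Among them, the haemoglobin gene Hba1 was at 61.6 and 60.7 CPM and 82.4 and 75.8 CPM (-0.37 ± 0.14). The choroid plexus marker Ttr was under 2 CPM in all 4 libraries. Of 5 choroid plexus and ependymal markers, Tmem212 was higher, on 7 and 8 against 2 and 2 counts, and none of 11 meningeal or 10 striatal and thalamic markers reached that p-value. Summed endothelial levels overlapped between the groups, and summed myelin levels did not, with SKF alone replicate 2 far above the other 3 libraries.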

How the data were processed

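RNA of CA1 tissue was sequenced as 150 bp paired reads from a stranded, ribosomal RNA-depleted library. The authors deposited whole-number counts per Ensembl gene for 10 samples, 32545 genes, not normalised. The study's methods name Trim Galore, Samtools, TopHat2 and Cufflinks with Rnor_6.0 and, in a later sentence, mm10, whereas the submitters' processing notes name STAR, RSEM, HISAT2, Salmon and GRCh38. Which of these made the counts, and whether strand was used, is not given in the sources used here. Counts of overlapping genes, and of genes with close copies, are therefore uncertain.

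The deposited counts were fitted in edgeR 4.0.16 (R 4.3.3) with TMM factors, filterByExpr by group (15032 genes kept) and 1 mean per group over all 10 samples. The quasi-likelihood test was adjusted by the Benjamini-Hochberg method over all genes tested. Alternatives used DESeq2 1.42.0, limma 3.58.1, RLE factors, other filters, a replicate block and leave-out fits. Samples were grouped by their labels. The comparison and the 44 gene lists were chosen with earlier results of these data known. Named genes were the 10 smallest p-values and 5 largest fold changes in each direction, the 5 smallest p-values of the difference of contrasts, and list genes at an unadjusted p-value under 0.05 or fixed by name. Markers and list genes named with larger p-values were chosen for their role, and a few genes that the rule names are not reported here. Intervals cover counting error only. The p-values rest on the spread between the 2 libraries of a group, estimated over all 10 samples together and with information shared across genes.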

Additional observations from a re-analysis of the deposited data

How the results depend on the processing

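Leaving out each library in turn gave 0 to 1 genes at an adjusted p-value under 0.05, with or without a log2 fold change beyond 1.5, for CSP-TTK21 alone against SKF alone. At an unadjusted p-value under 0.05 the count of 625 higher genes ranged from 186 to 966 and the count of 545 lower genes from 137 to 1082. With a log2 fold change beyond 1 as well, these ranged from 100 to 223 and from 45 to 273. The counts ranged from 7 to 22 for immediate early genes, 4 to 17 for effector genes, 9 to 23 for small nucleolar RNAs, 2 to 10 for mitochondrial genes and 11 to 788 for SKF alone against the groups with Aβ. The lowest count was without CSP-TTK21 alone replicate 2 for both directions and for immediate early and effector genes, and without SKF alone replicate 1 for small nucleolar RNAs and for the 887 genes of SKF alone. The 1 gene beyond 1.5 without SKF alone replicate 1 was Brms1, named after its values were seen (log2 fold change 5.36, adjusted p = 0.0318 in edgeR). Without a filter on low counts, 29 genes passed the full threshold and 157 the adjusted p-value, 979 were lower, 229 were higher and 172 lower beyond 1, 8 mitochondrial genes were higher, and the other contrasts gave 140 (difference of contrasts), 109 (CSP-TTK21 alone) and 1895 (SKF alone). DESeq2, with or without independent filtering, gave 1 gene at the full threshold, 3 at the adjusted p-value, 380 higher, 52 lower beyond 1, 14 of 943 small nucleolar RNAs, 2 for the difference of contrasts and 1 for CSP-TTK21 alone against the groups with Aβ (Epha7, likewise named afterwards). Limma gave 1 at the adjusted threshold, at least 10 counts in every library gave 1 at that threshold, 26 higher and 35 lower beyond 1 and 11 of 69 small nucleolar RNAs, and a fit on the 4 libraries alone gave 408 higher and 12 of 122 small nucleolar RNAs. The replicate numbers were not known to pair samples (correlation of same-number deviations 0.176). With the replicate number as a block, 0 genes passed the adjusted threshold, 679 were higher and 639 lower, 23 immediate early genes were lower, and 1137 differed in SKF alone against the groups with Aβ. Of 1760 fold changes of 149 named genes under all alternatives, 21 changed sign. In leave-out fits these were Cdh5 (-1.24 to 0.0066), Ptgs2 (-1.26 to 0.0927), Cxcl1 (-1.96 to 0.47), Klf4 (-0.93 to 0.13), Ier3 (-0.45 to 0.0428), S100b (-0.19 to 0.35), Il6 (-0.59 to 0.32), Crebbp (-0.0219 to 0.12), Wnt10b (-0.20 to 0.83), Ttr (-0.49 to 3.02), Ep300 (-0.11 to 0.0043), Klf10 (-0.15 to 0.0191), Creb1 (-0.0301 to 0.0727) and Prox1 (-0.15 to 0.20), and without the filter Creb1 was at -0.0006 and Prox1 at -0.006. The cause was not tested. DESeq2 without independent filtering, and the alternatives for the 4 lists and the other contrasts, were chosen after seeing the data. With 2 libraries a group, genes under 1 CPM rest on few counts.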
